A study of Mus musculus with 8 samples.

Results

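Annexins and the S100 proteins that bind them were followed through single-cell transcript counts of the mouse colon. The members are 8 named genes: Anxa1, Anxa2, Anxa5, Anxa6, S100a4, S100a6, S100a10 and S100a11. All 8 were found among the 31053 gene rows of the tables. They were chosen by their UMI levels, which differed between cell types and between DSS-treated and untreated libraries in earlier results of these data, so those differences are descriptions. For them edgeR's calls and unadjusted p under 0.05 are only counted and support nothing. Values of p for single genes are given only for the comparison of genotypes.

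Cells came from the colonic lamina propria, the connective tissue under the gut epithelium, of C57BL/6 mice aged 10 to 12 weeks. The mice were wildtype or carried a substitution of 1 amino acid in a transcription factor, the latter called mutant here. Treated mice drank 2% dextran sulfate sodium (DSS), a polymer toxic to the gut lining, for 7 days, followed by 3 days on water, and untreated mice drank water throughout; colons of both were taken on day 10. Each genotype was taken with and without DSS, which gives 4 groups of 2 libraries, numbered here 1 and 2. All 8 libraries were enriched for CD4+ cells by a magnetic kit, and about 10000 cells each entered droplet libraries that count unique molecular identifiers (UMIs) near the 3' end of transcripts.

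Annexins are cytosolic proteins that bind acidic phospholipids when calcium rises, and they link membranes to the actin cytoskeleton, help reseal damaged membranes and take part in vesicle traffic. S100 proteins are small proteins, most of them calcium-binding, that dock onto annexins and other targets. S100a10 pairs with Anxa2 in a tight complex at the plasma membrane that also binds the scaffold Ahnak, and S100a11 binds Anxa1 and Anxa2. In T cells, several of these genes are low in naive cells and are known as part of the transcript programme of effector, memory and tissue-resident cells.

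Of the 8 genes, 5 share a chromosome, and a link between position and level was not tested. In the mouse build GRCm38 (mm10), S100a4 (chr3:90603771-90606045, + strand) and S100a6 (chr3:90612882-90624181, + strand) are a pair 6836 bases apart. S100a11 (chr3:93520488-93526287, + strand) and S100a10 (chr3:93555080-93564643, + strand) are a second pair on the same chromosome, 28792 bases apart. Anxa5 lies at chr3:36448923-36475894 (- strand), Anxa2 at chr9:69453620-69491795 (+ strand), Anxa1 at chr19:20373428-20390944 (- strand) and Anxa6 at chr11:54979108-55033445 (- strand).

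RefSeq promoters of the same build were at hand for 6 of the 8 genes, and S100a10 and Anxa6 had no entry. The 250 bases before the RefSeq start are shown for 4 genes. Anxa2 (chr9:69453433-69453682) and S100a11 (chr3:93520246-93520495) were called lower after DSS in 6 of 7 T cell subsets, where 2.74% to 6.44% of all genes were. S100a4 (chr3:90603520-90603769) and S100a6 (chr3:90612644-90612893) had levels that depended on the subset. The genes were chosen on the DSS contrast, so nothing is read from these calls, and a link of promoters to DSS was not tested. All 4 are on the + strand, and capitals mark TATAAA, the GC box core GGGCGG and the AP-1 core TGANTCA, all searched on both strands.
Anxa2: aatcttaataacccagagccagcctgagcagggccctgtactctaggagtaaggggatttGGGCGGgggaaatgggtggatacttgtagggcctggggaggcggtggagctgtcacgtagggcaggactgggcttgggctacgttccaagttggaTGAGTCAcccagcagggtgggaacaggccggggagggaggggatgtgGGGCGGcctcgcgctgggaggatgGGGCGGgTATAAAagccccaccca
S100a11: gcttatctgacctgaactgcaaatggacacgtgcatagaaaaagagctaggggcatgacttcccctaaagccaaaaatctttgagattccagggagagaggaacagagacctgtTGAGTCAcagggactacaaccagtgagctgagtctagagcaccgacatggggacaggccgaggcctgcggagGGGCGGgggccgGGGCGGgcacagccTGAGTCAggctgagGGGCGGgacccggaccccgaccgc
S100a4: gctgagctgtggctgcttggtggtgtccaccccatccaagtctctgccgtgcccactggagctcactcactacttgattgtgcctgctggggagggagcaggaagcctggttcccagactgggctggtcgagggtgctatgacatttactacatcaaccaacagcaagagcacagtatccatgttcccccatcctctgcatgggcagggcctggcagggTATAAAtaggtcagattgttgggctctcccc
S100a6: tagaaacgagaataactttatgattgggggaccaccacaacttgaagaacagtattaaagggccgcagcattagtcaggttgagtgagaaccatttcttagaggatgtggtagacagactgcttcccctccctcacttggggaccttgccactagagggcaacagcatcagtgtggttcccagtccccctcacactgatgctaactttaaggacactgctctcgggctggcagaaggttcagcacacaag
TGANTCA stood once in the Anxa2 window and at 2 places in the S100a11 window, and in no window of Anxa1, Anxa5, S100a4 or S100a6. Of 32851 mouse promoters with the same length, 6.75% held it at least once and 0.338% at 2 or more places. GGGCGG stood at 3 places in each of the Anxa2 and S100a11 windows and in none of the other 4, against 32.7% of all promoters with at least 1 and 16.7% with 2 or more. TATAAA stood in the Anxa2, S100a4 and Anxa1 windows, 17, 31 and 32 bases before the RefSeq start, and in 12.4% of all promoters. RefSeq starts can differ from the GENCODE gene positions given above. The Anxa2 window ends at 69453682 and the Anxa2 position begins at 69453620, so this TATAAA lies inside that position. The Anxa1 window, chr19:20390672-20390921, lies wholly inside the Anxa1 position, which ends at 20390944. These matches describe letters only, and binding was not measured.

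Cell populations were built here by clustering all 96721 barcodes that passed limits on genes and mitochondrial UMIs, without annexin or S100 genes among the clustering genes. The authors' list of kept cells held 27420 barcodes, each with a Cd4 UMI. CD4 T cells here are the 20727 listed barcodes that fell into 9 T cell clusters, with 1775 to 3750 cells and 6147786 to 14913308 UMIs per library. UMIs were summed per library and population, and a level is the CPM of that sum, its count scaled to the library and population total, which is compared between cells for 1 gene at a time. Of the barcode sequences within the limits, 1088 of 95624 occurred in more than 1 library. Untreated mutant libraries stood apart in heat-shock genes: the 5 heat-shock markers summed to 3660 and 1950 CPM in their CD4 T cells, against 492 to 1170 CPM in the other 6 libraries. DSS-treated wildtype library 2 had the highest sum of 8 macrophage markers in CD4 T cells, 438 CPM against 107 to 271 CPM elsewhere. It and DSS-treated mutant library 1 had 3090 and 2820 CPM of 7 plasma cell markers, against 431 to 1260 CPM in the rest. No marker of these lists was at 0 in CD4 T cells, and their part in the results was not tested.

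Among T cells of the 4 untreated libraries, 7 of the 8 genes were lower in naive-like and Tfh-like cells than in Th1-like, Th17-like and Treg-like cells. Anxa1 means ran the same way but were 5.97 CPM or less in each of them. They rested on 0 to 2 UMIs per library in naive-like and Tfh-like cells. S100a4, which binds non-muscle myosin and is tied to cell motility, averaged 814 ± 110 CPM (SD, n = 4) in Treg-like cells, 701 ± 184 in Th17-like and 482 ± 106 in Th1-like cells. In Tfh-like and naive-like cells S100a4 averaged 64.6 ± 20.2 and 87.3 ± 37.2 CPM. Treg-like and Th17-like means lay within their spread of each other, as did the Tfh-like and naive-like means. The gap between these pairs was wider than the spread. Within single untreated libraries, the log2 ratio of S100a4 in Treg-like over Th17-like cells was 0.02 and 0.16 in wildtype and 0.26 and 0.53 in mutant. S100a6, a partner of the ubiquitin ligase adaptor Cacybp, followed the same order among the effector subsets, with 1426 ± 222 CPM in Treg-like, 1111 ± 172 in Th17-like, 818 ± 140 in Th1-like, 189 ± 54.5 in Tfh-like and 126 ± 69.6 in naive-like cells. Over all 8 libraries, the log2 ratio of the level in Treg-like over naive-like cells was 3.91 ± 1.07 for S100a4 and 3.75 ± 0.61 for S100a6.

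The pair of Anxa2 and S100a10 was split between subsets. S100a10 was highest in Treg-like cells, at 1475 ± 174 CPM (SD, n = 4 untreated libraries), against 1205 ± 106 in Th17-like, 993 ± 106 in Th1-like, 442 ± 74.1 in Tfh-like and 246 ± 46.1 in naive-like cells. Anxa2 was instead highest in an unnamed T cell cluster led by Ccl5, Eomes and Gzmk, at 283 ± 41.3 CPM, and in proliferating cells, at 271 ± 34.2 CPM. Th17-like cells had 227 ± 8.06 CPM of Anxa2 and Treg-like cells 164 ± 24.9 CPM, so that Treg-like cells were above Th17-like cells for S100a10 and below them for Anxa2. Tfh-like and naive-like cells had 64.3 ± 14.4 and 34.7 ± 10.2 CPM of Anxa2. S100a11 differed little among effector subsets, with 688 ± 46.8 CPM in Treg-like, 648 ± 89.8 in Th17-like and 565 ± 89.2 in Th1-like cells, and had 328 ± 63.9 CPM in Tfh-like and 110 ± 47.7 CPM in naive-like cells.

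Anxa5, known for binding phosphatidylserine on dying cells, had the smallest log2 ratio of Treg-like over naive-like cells among 7 genes, 1.28 ± 0.38 (SD, n = 8). It ranged from 46.5 ± 11.9 CPM in naive-like to 127 ± 7.6 CPM in Treg-like cells of the untreated libraries, with 126 ± 16 CPM in Th17-like cells. Anxa6, a large annexin with a doubled core that binds membranes and p120 RasGAP (Rasa1), had 184 ± 21.5 CPM in Treg-like and 155 ± 14.9 CPM in Th1-like cells, against 47.8 ± 23.5 in naive-like and 44.0 ± 12.9 in Tfh-like cells. Anxa1, which acts through formyl peptide receptors to limit inflammation, was barely counted in T cells. Its CD4 T cell levels were 4.32 and 8.54 CPM in untreated wildtype, 2.93 and 6.35 in untreated mutant, 2.01 and 3.98 in DSS-treated wildtype, and 4.33 and 3.35 in DSS-treated mutant libraries. Of these 8 values 6 lay within the range of B-like cells, 1.68 to 5.38 CPM, where Anxa1 had 1 to 8 UMIs per library. Plasma-like cells had less, 0.285 to 0.936 CPM in untreated and 1.29 to 2.19 CPM in DSS libraries, and the part of free RNA in the T cell values was not tested.

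**Figure D1:**
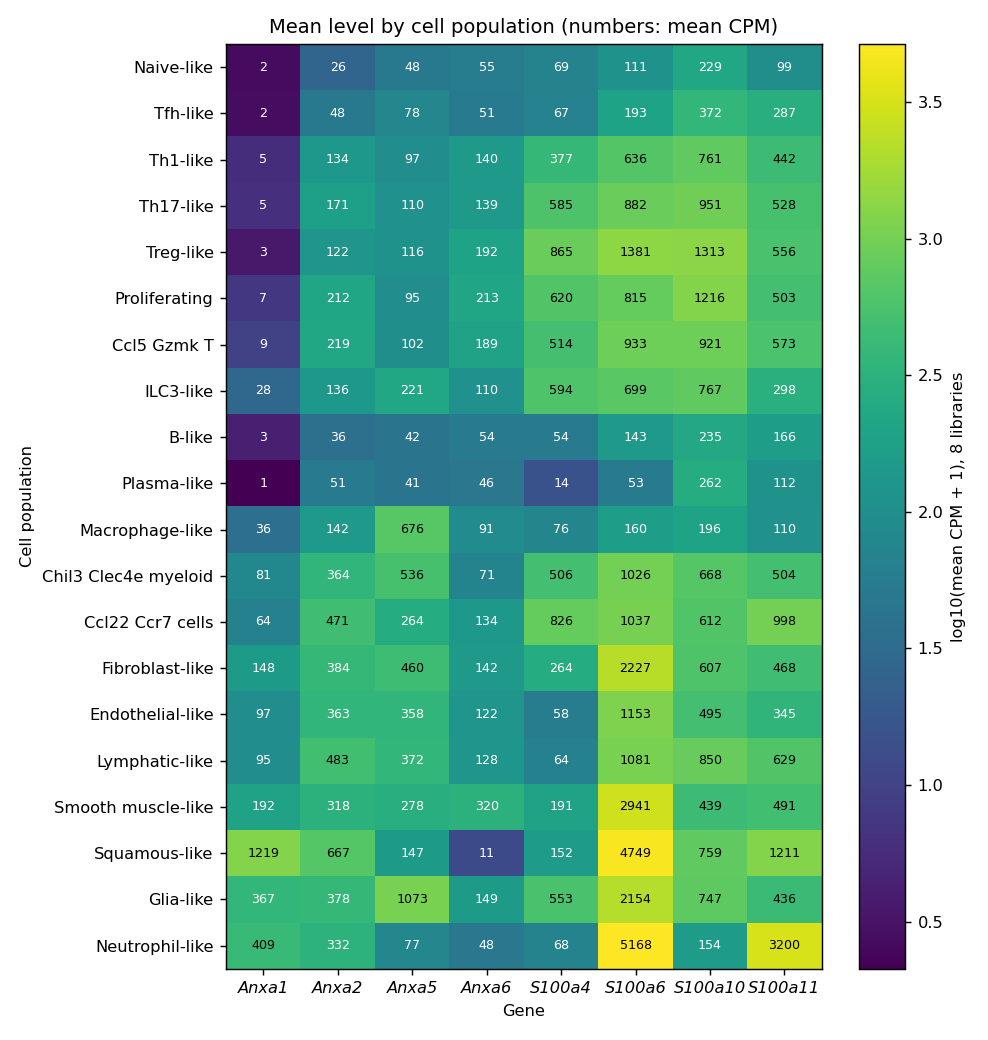
Mean level of each gene (columns) in 20 cell populations (rows), as CPM of summed UMIs averaged over all 8 libraries; colour is log10(mean CPM + 1) and the numbers are mean CPM. Naive-like and Tfh-like rows are the darkest among T cells, and Anxa1 is 9 CPM or less in every T cell row; colours are to be compared down a column.

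Outside T cells, the highest levels lay in different populations for different genes. Anxa1 was highest in squamous-like cells of the DSS libraries, at 1830 and 2067 CPM in wildtype and 1954 and 3771 CPM in mutant libraries, against 0 to 63.5 CPM in the untreated libraries. The squamous-like cluster held 1 to 89 cells per untreated library and 44 to 179 per DSS library. Untreated mutant library 1, with 89 cells, had 45.0 CPM at a median of 2028 UMIs per cell, against 6593 to 18548.5 in DSS libraries. A finer clustering split off 79 squamous-like barcodes, 94.9% of them from 1 library, and whether like cells are compared was not tested. The other untreated libraries held 1 to 7 cells, so their values rest on few cells. Neutrophil-like cells were also few, 9 to 65 per library, and their S100a11 was 4305 to 4923 CPM in DSS and 1570 to 2053 CPM in untreated libraries. Their S100a6 was 5886 to 14410 CPM in DSS and 725 to 2660 CPM in untreated libraries. Neither population reached 30 cells in every library, so no fit was made for them.

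Macrophage-like cells, with 662 ± 69.2 CPM in untreated libraries (SD, n = 4), and glia-like cells, with 1367 ± 191 CPM, had the highest Anxa5. Among stromal cells S100a6 was high, with 2581 ± 292 CPM in fibroblast-like and 3108 ± 398 CPM in smooth muscle-like cells. Its untreated mean was 3749 CPM in the separately named Bmp F3 fibroblast-like cells. Anxa6 was highest in smooth muscle-like cells, at 302 ± 72.0 CPM. S100a4 averaged 201 ± 40.0 CPM in fibroblast-like, 73.5 ± 20 CPM in smooth muscle-like and 46.2 ± 21.4 CPM in endothelial-like cells. Its untreated means were higher in the cluster led by Ccl22 and Ccr7 (582 CPM) and in ILC3-like cells (565 CPM). The same held for the myeloid cluster led by Chil3 and Clec4e (490 CPM) and for glia-like cells (430 CPM). Plasma-like cells ranked 26 to 30 of 30 populations for all 8 genes, with 15.5 ± 5.64 CPM of S100a4 and 71.2 ± 9.14 CPM of Anxa2, and their S100a10 was 378 ± 28.1 CPM.

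Across 28 populations, the genes whose mean levels ran most like a member were named by Pearson's r of log2(CPM + 1). This is a description, as the points share libraries. Each mean was over the libraries with at least 10 cells of that population, so the squamous-like mean lacked most untreated libraries. The part of this treatment mix in r was not tested. S100a6 and S100a11 were each other's closest gene, with r = 0.861. Anxa6 was followed most closely by Lgals1, the galectin-1 gene, with r = 0.823, and S100a13 had r = 0.769. For S100a4 the closest were Ltb4r1, a leukotriene B4 receptor, with r = 0.818, and Id2, with r = 0.816. The top values for Anxa1 and Anxa5 were 0.934 with Tmem132a and 0.938 with Spred1. Anxa2 came closest to Plekhg3 (r = 0.814) and S100a10 to Cldnd1 (r = 0.751), so neither of these partners was among the other's 3 nearest genes.

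After DSS, the mean Anxa2 level in CD4 T cells was 53.6% of that in untreated mice. It was 197 and 200 CPM in untreated wildtype, 191 and 160 in untreated mutant, 104 and 86.9 in DSS-treated wildtype and 120 and 89.1 in DSS-treated mutant libraries. All 4 DSS libraries were below all 4 untreated ones, which held for 8.18% of all genes. The log2 fold change was -1.12 ± 0.16 (SE) in wildtype, -0.83 ± 0.16 in mutant and -0.97 ± 0.12 as the mean of both genotypes. S100a11 was 682 and 552 CPM in untreated wildtype, 547 and 466 in untreated mutant, 378 and 362 in DSS-treated wildtype and 399 and 336 in DSS-treated mutant libraries. Again no DSS library reached an untreated one, and the log2 fold change was -0.68 ± 0.10 for both genotypes together.

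S100a10 was 1023 and 1115 CPM in untreated wildtype, 1060 and 932 in untreated mutant, 946 and 740 in DSS-treated wildtype, and 889 and 738 in DSS-treated mutant libraries. The ranges touched, as 1 DSS library lay above the lowest untreated one, and the log2 fold change of -0.39 ± 0.11 was closer to 0 than that of its partner Anxa2. S100a4 and S100a6 did not separate the treatments in pooled CD4 T cells. S100a4 was 652 and 549 CPM in untreated wildtype, 525 and 358 in untreated mutant, 434 and 699 in DSS-treated wildtype, and 512 and 487 in DSS-treated mutant libraries, a log2 fold change of -0.03 ± 0.15, while the mean CPM after DSS was 102% of the untreated one. For S100a6 the change was -0.18 ± 0.12. Anxa5 and Anxa6 were at -0.30 ± 0.11 and 0.04 ± 0.11.

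A gene was called where edgeR's quasi-likelihood test gave a Benjamini-Hochberg adjusted p under 0.05 over all genes tested in that population. In wildtype CD4 T cells 2 of the 8 genes were called lower after DSS, Anxa2 and S100a11, where 0.172% of 11034 genes were called lower and 0.399% in either direction. In mutant cells Anxa2 alone was called, against 2.72% of genes called lower. The S100a11 change in mutant cells, -0.55 ± 0.14, was not called. With both genotypes, 3 of 8 were called lower (Anxa2, S100a11 and S100a10) and none higher, against 9.10% of genes lower and 9.14% higher; the call of S100a10 held under 11 of 18 alternatives. The median log2 fold change of the 8 was -0.34, and that of all 11034 genes 0.01. The genes were chosen on this contrast, so nothing is read from these counts and shares, nor from those with DSS in T cell subsets and other populations. With each library left out in turn, the count with both genotypes was 2 to 4. In wildtype alone it was 0 without untreated wildtype library 1 or 2 or DSS-treated wildtype library 2. In mutant alone it was 0 without either untreated mutant library, either untreated wildtype library or DSS-treated mutant library 2, and 2 without DSS-treated mutant library 1.

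**Figure D2:**
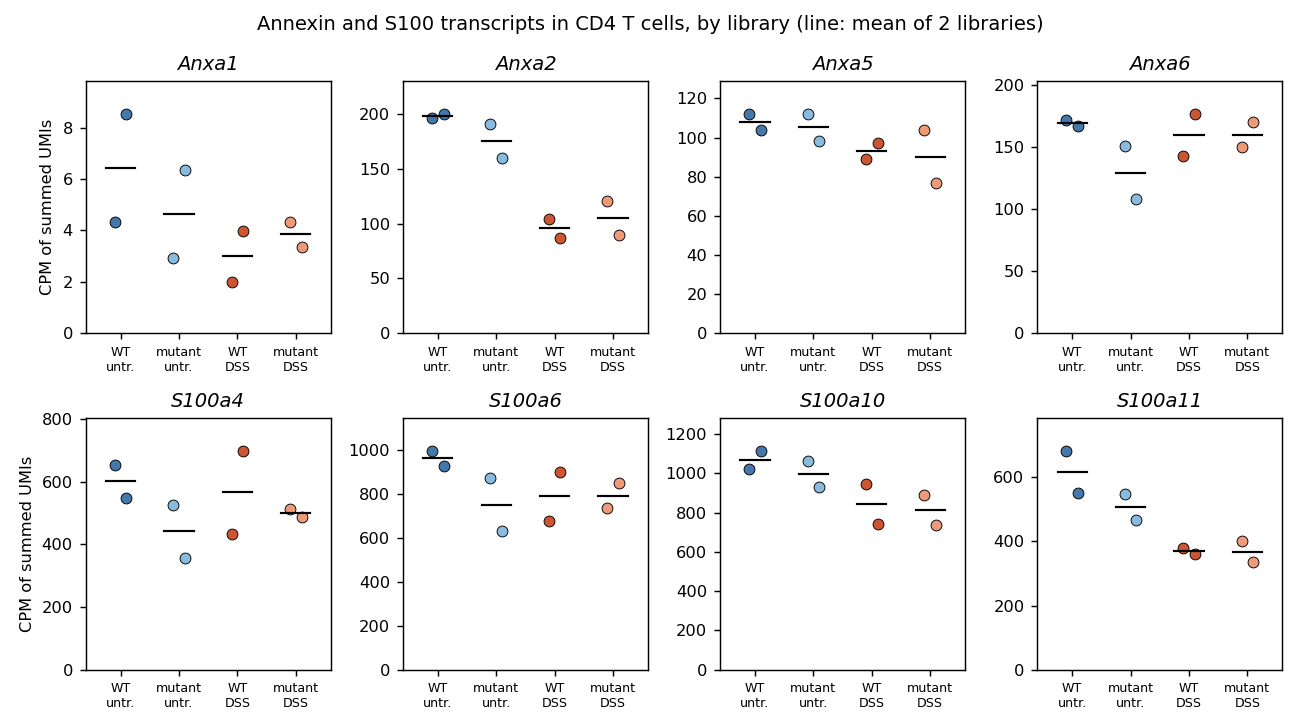
Level of each gene in CD4 T cells, as CPM of summed UMIs, in each of 2 libraries per group (points; line is their mean) on a linear axis from 0. For Anxa2 and S100a11 all DSS points (87 to 120 and 336 to 399 CPM) lie below all untreated points (160 to 200 and 466 to 682 CPM), and for S100a4, S100a6 and Anxa6 the treatments overlap.

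Shares of cells gave the same picture for Anxa2 when each cell was thinned to 1000 UMIs. The share of CD4 T cells with an Anxa2 UMI was 15.7% ± 0.771 (SD, n = 2) in untreated wildtype, 14.7% ± 1.83 in untreated mutant, 8.07% ± 1.49 in DSS-treated wildtype and 8.66% ± 2.33 in DSS-treated mutant libraries. Without thinning these shares were 33.4%, 32.9%, 18.8% and 20.8%. In naive-like cells of the same libraries, which should hold little Anxa2, the thinned shares were 1.58%, 1.62%, 1.68% and 0.212%, at median depths of 1644 to 2595.5 UMIs against 1950 to 2885.5 in all CD4 T cells. Thinning left out 177, 53, 209 and 154 shallower CD4 T cells in the 4 groups. A positive thinned cell held 1.19 Anxa2 UMIs on average in each untreated group and 1.13 and 1.12 in the DSS groups. In plasma-like cells, at median depths of 6740.5 to 11847.5 UMIs, the thinned shares were 7.39%, 4.84%, 2.42% and 2.97%.

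In Th17-like cells 5 of 7 tested genes were called lower with both genotypes, against 3.12% of 7886 genes. Anxa2 was 222 and 220 CPM in untreated wildtype, 237 and 232 in untreated mutant, 138 and 109 in DSS-treated wildtype, and 140 and 71.2 in DSS-treated mutant Th17-like cells, a change of -0.98 ± 0.16. S100a10, S100a6, S100a11 and S100a4 were at -0.81 ± 0.12, -0.79 ± 0.13, -0.69 ± 0.12 and -0.60 ± 0.17, and the call of S100a4 held under 8 of 16 alternatives. In wildtype alone edgeR called none of the 7, where 0.0507% of genes were called lower, although 5 reached an unadjusted p under 0.05, as did 862 of all 7886 genes. DESeq2 called 3 of the 7, and 23 genes in all. In mutant 4 were called by edgeR, against 1.72% of genes. That count was 0 without untreated mutant library 1 or 2 and 2 without either untreated wildtype library or DSS-treated mutant library 2, and the wildtype count was 4 without either DSS-treated mutant library. The share of Th17-like cells varied widely between libraries, from 9.12% to 38.1% of CD4 T cells within the DSS-treated mutant group. Th1-like cells had the same 5 genes called lower with both genotypes, with log2 fold changes from -1.08 to -0.88, against 6.39% of 8054 genes. The name is weak: the Th1 marker score was 1.37 in this cluster and 2.81 in the unnamed cluster led by Ccl5, Eomes and Gzmk. In the finer clustering no T cell cluster was named Th1-like, and Th1-like cells were not fitted again under other clusterings.

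Treg-like cells had lower Anxa2 and S100a11 after DSS as well, whereas S100a4 and S100a6 were not called. Anxa2 was 144 and 199 CPM in untreated wildtype, 166 and 148 in untreated mutant, 86.7 and 68.8 in DSS-treated wildtype, and 86.7 and 78.2 in DSS-treated mutant libraries, a change of -1.07 ± 0.13. S100a11 was at -0.74 ± 0.10 and S100a10 at -0.39 ± 0.11, and these 3 of 7 tested genes were called lower, against 5.49% of 8252 genes; the call of S100a10 held under 10 of 16 alternatives. In these cells 5 CD8 T cell markers, none at 0, summed to 760 to 991 CPM in untreated and 485 to 740 CPM in DSS libraries, and the mean mitochondrial share was 2.54% to 2.91% and 3.02% to 3.70%. Neither pair of ranges overlapped, and their part in the result was not tested. S100a4 was 947 and 756 CPM in untreated wildtype, 854 and 698 in untreated mutant, 737 and 1238 in DSS-treated wildtype, and 812 and 874 in DSS-treated mutant Treg-like cells. These ranges overlapped, at 0.13 ± 0.14 in log2, and S100a6 was at -0.13 ± 0.14. Without DSS-treated wildtype library 2, the S100a4 value was -0.07, and without untreated mutant library 1 the S100a6 value was 0.03.

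The 2 clusters that make up the Treg-like cells gave different calls for S100a10. In the cluster led by Il1rl1 and Klrg1 it was 1135 to 1342 CPM in untreated and 677 to 964 CPM in DSS libraries, and it was called lower at -0.60 ± 0.13, against 2.35% of genes. In the cluster led by Foxp3 and Il10 the ranges were 1286 to 1814 and 1169 to 1588 CPM, they overlapped, and the change of -0.30 ± 0.12 was not called, where 5.37% of genes were called lower. The difference between these clusters was not tested.

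**Figure D3:**
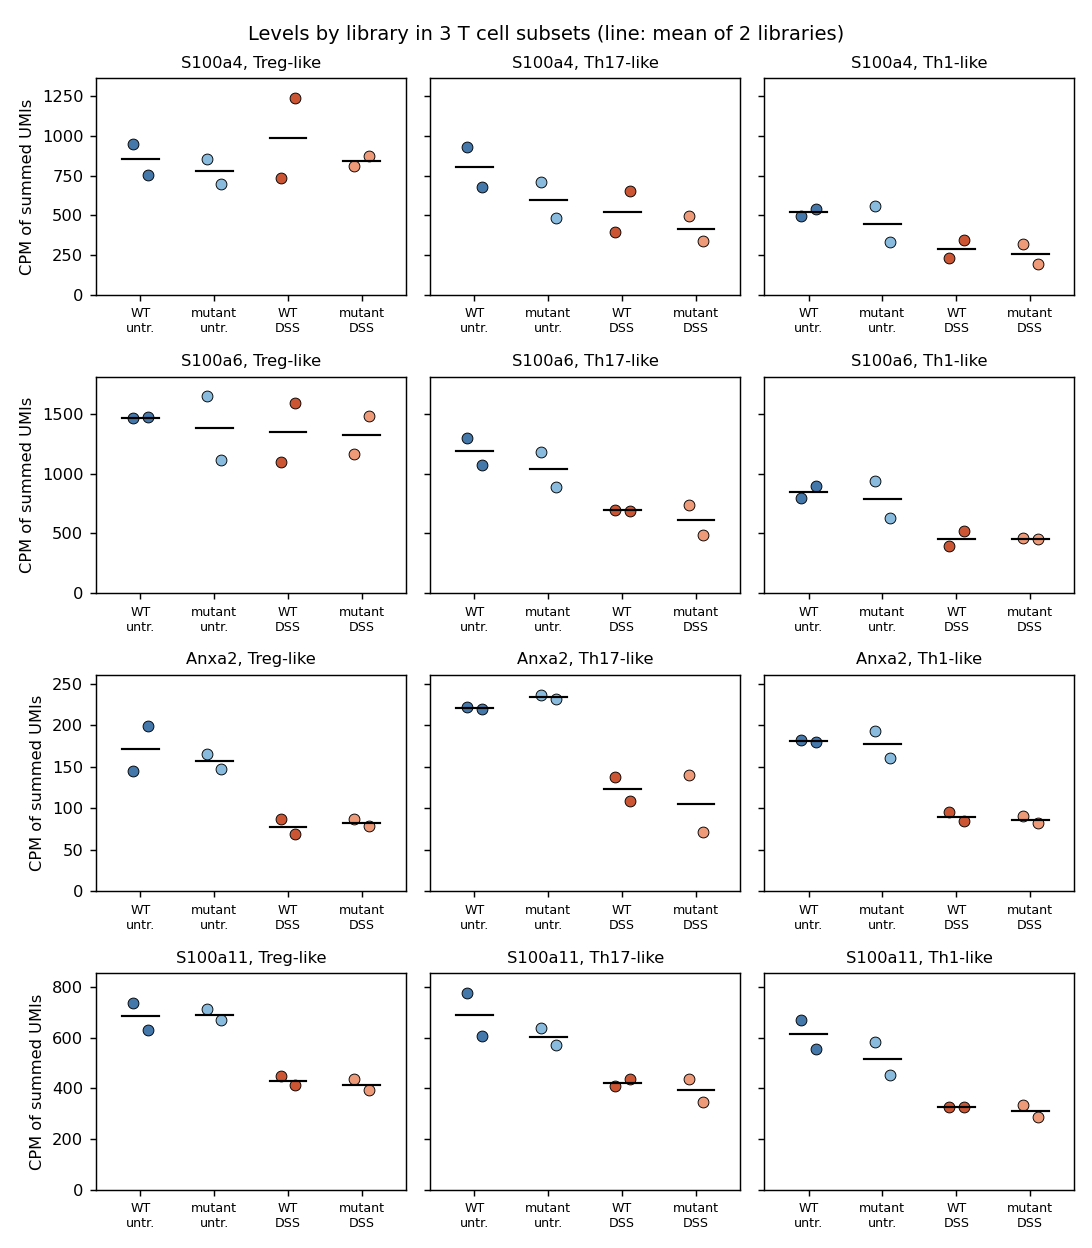
Levels of S100a4, S100a6, Anxa2 and S100a11 (rows) in Treg-like, Th17-like and Th1-like cells (columns), as CPM of summed UMIs in each of 2 libraries per group (points; line is their mean). Anxa2 and S100a11 are lower in the DSS groups in all 3 subsets, while S100a4 and S100a6 stay at 737 to 1238 and 1101 to 1596 CPM in DSS-treated Treg-like cells.

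To set subsets side by side within a library, the log2 ratio of a gene's level (CPM + 1) in Treg-like over Th1-like cells was taken. For S100a4 it was 0.93 and 0.48 in untreated wildtype, 0.61 and 1.08 in untreated mutant, 1.67 and 1.84 in DSS-treated wildtype, and 1.35 and 2.15 in DSS-treated mutant libraries. All 4 DSS ratios were above all 4 untreated ones, with means of 1.75 ± 0.34 and 0.78 ± 0.28 (SD, n = 4). The same held for S100a6 (1.54 ± 0.16 against 0.80 ± 0.07), S100a10 (1.13 ± 0.07 against 0.57 ± 0.13) and Anxa6 (0.67 ± 0.04 against 0.25 ± 0.04). Of the 7784 genes compared, 3.96% had ratios that did not overlap and were higher after DSS. For Anxa2, Anxa5 and S100a11 the ratios of the 2 treatments overlapped. The Th1-like name is weak, as given above, and Th1-like levels were not taken under other clusterings. Against Th17-like cells the same 4 genes had DSS ratios above all untreated ones, against 3.81% of 7693 genes.

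The make-up of the CD4 T cells moved with treatment. The 2 Treg-like clusters held 8.92% to 11.2% and 3.38% to 4.63% of the cells of untreated libraries, and 15.4% to 19.5% and 7.09% to 11.2% of those of DSS libraries. With the cluster make-up held fixed (limma on log2 weighted CPM), the change with DSS in both genotypes was -0.28 for S100a4 and -0.40 for S100a6. As found, these changes were -0.03 and -0.18. S100a6 was called with the make-up fixed, and under 1 of 18 alternatives in all. That fit also used no TMM scaling and another test than edgeR, so the part of make-up in these values was not tested. Anxa2 and S100a11 were at -0.96 and -0.69 under the fixed make-up, next to -0.97 and -0.68 as found.

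Anxa2 was also called lower in proliferating cells, Tfh-like cells and the cluster led by Ccl5, Eomes and Gzmk, at -0.88 ± 0.13, -1.08 ± 0.19 and -0.95 ± 0.16, where 6.44%, 3.20% and 3.63% of genes were called lower. In Tfh-like cells, where the gene is low, it was 48.6 to 78.7 CPM in untreated and 24.3 to 37.5 CPM in DSS libraries, with no overlap. S100a10 and S100a11 were also called lower in them, at -0.57 ± 0.16 and -0.43 ± 0.12, whereas S100a4 and S100a6 were at -0.03 ± 0.21 and 0.07 ± 0.16. In naive-like cells, with 73 to 238 cells per library, edgeR called none of 7 tested genes, against 2.74% of 3831 genes called lower. An unadjusted p under 0.05 was reached by 5 of these 7 in edgeR, as by 778 of all 3831 genes. DESeq2 was not run there.

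Counts were also taken over 17 populations, T and non-T, that share no cells. They come from the same libraries, so the populations are not independent of each other. Anxa2 had a negative change in 16 and was called lower in 12. S100a10 was negative in all 17 and called lower in 12, and S100a11 was called lower in 11. S100a6, Anxa5, Anxa1 and Anxa6 were called lower in 7, 5, 4 and 1, with Anxa1 tested in 9 populations only, and none of these 7 genes was called higher in any of the 17 with both genotypes. S100a4 was called lower in 3 and higher in 2. In mutant alone, S100a6 was called higher in B-like cells, at 0.63 ± 0.18, as was S100a4, at 0.99 ± 0.26, where 3.99% of 6890 genes were called higher. Signs are those of fits with TMM scaling; in 6 of the 128 tests the mean CPM ran the other way, and none of the 6 was called. The share of all genes called lower in these populations ranged from 0.660% to 12.7%, with a median of 3.63%.

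**Figure D4:**
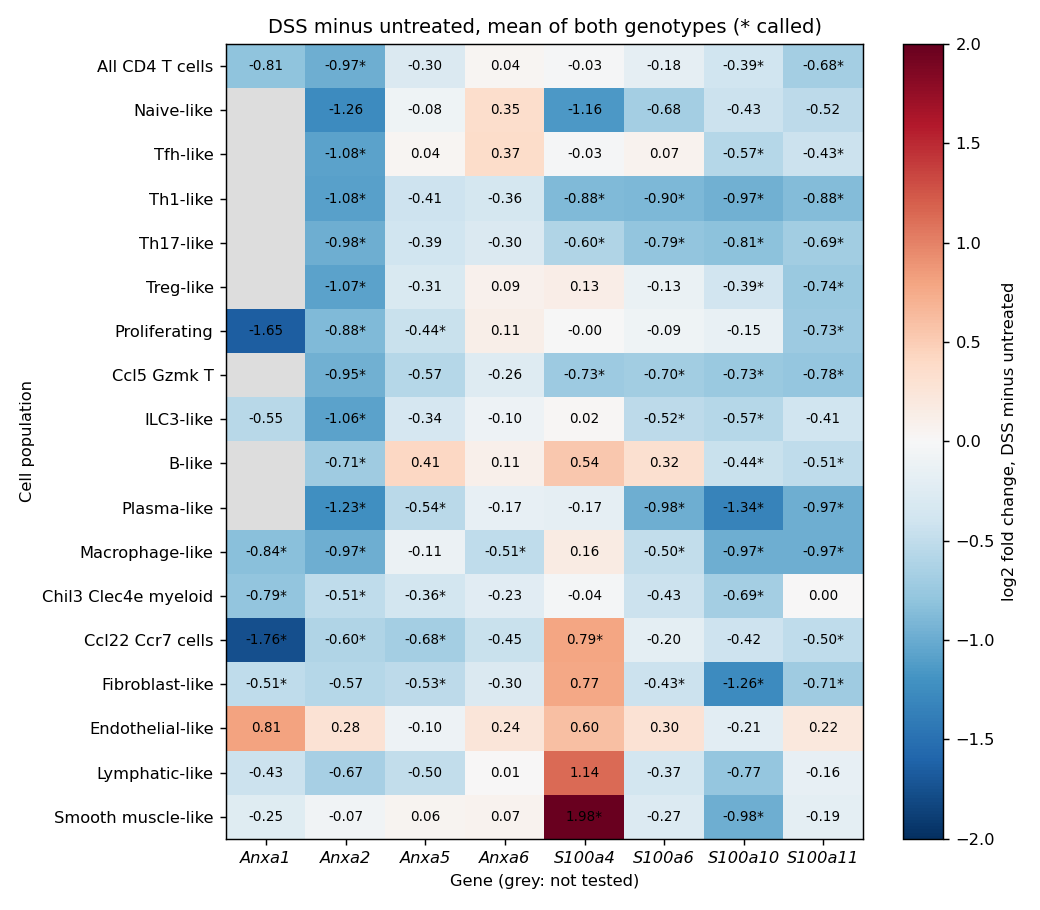
Log2 fold change, DSS minus untreated as the mean of both genotypes, for each gene (columns) in CD4 T cells and 17 further populations (rows); an asterisk marks a gene called by edgeR and grey a gene not tested. S100a10 is negative in every row, Anxa2 in all but endothelial-like cells (in smooth muscle-like cells the mean CPM goes the other way, at 103%), and S100a4 runs from -1.16 in naive-like to 1.98 in smooth muscle-like cells.

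Plasma-like and B-like cells hold little of most of these genes. In plasma-like cells, Anxa2 was 80.1 and 76.9 CPM in untreated wildtype, 67.9 and 59.9 in untreated mutant, 31.1 and 28.4 in DSS-treated wildtype, and 23.2 and 36.8 in DSS-treated mutant libraries. The DSS libraries were all lower, as for 9.30% of genes. S100a10 was 336 to 395 CPM in untreated and 121 to 181 CPM in DSS plasma-like cells, a change of -1.34 ± 0.13. In all, 5 of the 7 genes tested there were called lower, against 3.13% of 8459 genes. In B-like cells 3 of 7 genes were called lower, against 8.16% of 6890 genes: Anxa2 at -0.71 ± 0.22, S100a11 at -0.51 ± 0.12 and S100a10 at -0.44 ± 0.12. The other 4 were not called and had positive values, with S100a4 at 0.54 ± 0.20, Anxa5 at 0.41 ± 0.20, S100a6 at 0.32 ± 0.14 and Anxa6 at 0.11 ± 0.17. What part free RNA had in these levels was not tested.

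Myeloid and stromal populations differed in how many of the genes were called. In macrophage-like cells 6 of 8 genes were called lower, against 12.7% of 10453 genes, with S100a11 at -0.97 ± 0.17, Anxa2 at -0.97 ± 0.13 and Anxa1 at -0.84 ± 0.16, while Anxa5 was at -0.11 ± 0.10 with TMM scaling and not called, and its mean CPM was 104% of the untreated one. Their depth and mitochondrial share moved with treatment: the median was 3393 to 5179.5 UMIs per cell in untreated and 2166 to 3130.5 in DSS libraries, and the mean mitochondrial share 3.68% to 4.48% and 5.44% to 6.88%. Fibroblast-like cells had 4172 to 5404 and 5651 to 8076 UMIs and 2.27% to 2.78% and 3.05% to 3.44%. The mitochondrial share was higher in all 4 DSS libraries than in all 4 untreated ones in 9 of the 17 populations. These were, besides macrophage-like, fibroblast-like and Treg-like cells, the naive-like (3.27% to 3.69% and 3.73% to 4.35%), proliferating (2.98% to 3.41% and 3.65% to 4.16%), ILC3-like (2.90% to 3.32% and 3.43% to 3.96%), endothelial-like (2.70% to 3.11% and 3.57% to 4.02%) and lymphatic endothelial-like cells (1.77% to 2.16% and 2.30% to 2.51%) and the myeloid cluster led by Chil3 and Clec4e. The part of depth and mitochondrial share in these values was not tested. The lowest Anxa1 change was in the unnamed cluster led by Ccl22 and Ccr7, with 78.2 to 113 CPM in untreated and 11.9 to 47.1 CPM in DSS libraries, at -1.76 ± 0.26, where 7.31% of genes were called lower. Fibroblast-like cells had S100a10 at 733 to 965 CPM in untreated and 310 to 403 CPM in DSS libraries, a change of -1.26 ± 0.13, and 5 of 8 genes called lower, against 8.91% of 13205 genes. The 3 fibroblast clusters changed places, as the one led by Rarres2 and Postn held 560 to 1119 cells in untreated and 22 to 176 in DSS libraries. In the cluster led by Ereg and Igfbp5, S100a10 was at -0.92 ± 0.21, S100a6 at 0.25 ± 0.14 and Anxa1 at -0.06 ± 0.23. In the cluster led by Dcn and Lum they were at -1.51 ± 0.16, -0.75 ± 0.14 and -0.61 ± 0.14. The part of cluster make-up in the pooled fibroblast-like values was not tested. In endothelial-like cells edgeR called none of 8 genes, against 2.50% of 10364 genes called lower. An unadjusted p under 0.05 was reached by 1 of these 8 in edgeR, as by 2235 of all 10364 genes. Endothelial-like Anxa2 was 312 to 369 CPM in untreated and 370.4 to 433 CPM in DSS libraries, at 0.28 ± 0.13, and it and Anxa1 were above all untreated values in all 4 DSS libraries, as 6.99% of genes were. In smooth muscle-like cells the mean Anxa2 level in CPM after DSS was 103% of the untreated one, with ranges that overlapped, whereas the TMM-scaled fit gave -0.07 ± 0.18.

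S100a4 was called higher in 2 of the 17 populations. In smooth muscle-like cells it was 79.1 and 99.2 CPM in untreated wildtype, 60.1 and 55.5 in untreated mutant, 131 and 581 in DSS-treated wildtype, and 223 and 303 in DSS-treated mutant libraries. All DSS libraries were above all untreated ones, and the change was 1.98 ± 0.37, where 1.83% of genes were called higher. In the cluster led by Ccl22 and Ccr7 it was 466 to 762 CPM in untreated and 876 to 1428 CPM in DSS libraries, a change of 0.79 ± 0.15, where 7.02% were called higher. DSS-treated wildtype library 2 had the highest S100a4 of the 8 libraries in 11 of the 17 populations, and its part in these values was not tested; without it, the smooth muscle-like DSS values of 131 to 303 CPM still lay above the untreated range. In fibroblast-like cells as a whole S100a4 was at 0.77 ± 0.28 and not called, and in their clusters led by Ereg and Igfbp5 and by Dcn and Lum it was called higher, at 0.95 ± 0.26 and 0.65 ± 0.18, against 7.35% and 8.82% of genes. Of the barcodes of these clusters, 28.9% and 11.5% were among the 8% with the highest scores of the doublet caller Scrublet. The part of doublets in these values was not tested.

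Genes related to the members were read from lists. Of 8 other annexins, 4 had enough counts to be tested in CD4 T cells (Anxa3, Anxa4, Anxa7 and Anxa11), and none was called with DSS in both genotypes, with a median log2 fold change of 0.15, where 9.10% of all genes were called lower and 9.14% higher. Of 12 other S100 genes 4 were tested. S100a13 was called lower, from 224 to 278 CPM in untreated to 213 to 232 CPM in DSS libraries. S100a8 and S100a9, genes of neutrophils, were called higher at very low levels, with S100a8 at 0 to 0.160 CPM in untreated and 0.669 to 3.91 CPM in DSS CD4 T cells.

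Of 21 partners and receptors 10 were tested, and 3 were called lower and 2 higher, beside the same shares of 9.10% and 9.14% of all genes. Ahnak, the scaffold that binds the Anxa2 and S100a10 complex, was 732 to 1020 CPM in untreated and 578 to 684 CPM in DSS CD4 T cells, a change of -0.46 ± 0.08. Sugt1, a chaperone adaptor that S100a6 binds, was at -0.58 ± 0.10 and Rasa1 at -0.25 ± 0.07. Plaur, the urokinase receptor, and Ager, a receptor for S100 proteins, were called higher from levels of 2.28 CPM or less. Myh9, the non-muscle myosin heavy chain that S100a4 binds, was at 0.23 ± 0.08 and was not called. Receptors of Anxa1, Fpr1 and Fpr2, were not among the 10 tested.

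All 17 genes of effector memory and the cytoskeleton were tested in CD4 T cells, and 8 were called lower and 1 higher, against 9.10% of all genes lower and 9.14% higher. Crip1, a LIM-domain protein, was at -1.10 ± 0.10, Lmna, the nuclear lamin A gene, at -1.22 ± 0.12, Lgals3, the galectin-3 gene, at -1.12 ± 0.16, and Lgals1 at -0.50 ± 0.09. The list's median was -0.42, beside 0.01 for all genes, and Myo1f was called higher at 0.49 ± 0.12. Of 8 naive T cell genes, 2 were called lower and 2 higher. Among 11 stress and dissociation genes 5 were called lower and none higher, and untreated mutant libraries had the highest heat-shock levels. All these lists, with those of other annexins, other S100 genes, and partners and receptors, share the DSS comparison that chose the members. They were chosen with earlier results of these data known, so nothing is read from their counts, shares and medians.

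None of the 8 genes was called between mutant and wildtype mice. In untreated CD4 T cells, log2 fold changes of mutant over wildtype ran from -0.46 to -0.04, and edgeR called 0 of 8 and 0 of 11034 genes, of which 578 had an unadjusted p under 0.05. At an unadjusted p under 0.05, 1 of the 8 passed: Anxa6, at 171 and 167 CPM in wildtype and 150 and 108 CPM in mutant libraries, a change of -0.39 ± 0.16 with an adjusted p of 0.929 by edgeR (0.302 to 1 over 19 alternatives). S100a4 and S100a6 were at -0.45 ± 0.22 and -0.36 ± 0.17, with an edgeR adjusted p of 0.947 for each. Both wildtype libraries were above both mutant libraries for 5 of the 8 genes (Anxa2, Anxa6, S100a4, S100a6 and S100a11), as for 18.8% of all genes, and the smallest two-sided exact permutation p that 2 against 2 libraries allow is 0.333. Untreated mutant libraries also held 10.9% and 4.18% heat-shock-led T cells against 0.280% and 1.89% in wildtype, and without that cluster edgeR again called 0 of 8.

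After DSS the same comparison ran from -0.19 to 0.36 in CD4 T cells, and 0 of 8 genes passed even an unadjusted p under 0.05 in edgeR. For Anxa2 it was 0.11 ± 0.16 and for S100a11 -0.02 ± 0.14, with an edgeR adjusted p of 1 for both. The difference of the DSS effects between genotypes was 0.29 ± 0.23 for Anxa2, 0.26 ± 0.20 for S100a11 and 0.25 ± 0.31 for S100a4, with an edgeR adjusted p of 0.999 for each. DESeq2 also called 0 of 8 in these 3 comparisons. A missing call does not show that the genotypes are alike.

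In Th17-like cells, mutant over wildtype ran from -0.48 to 0.08 in untreated and from -0.34 to -0.07 in DSS-treated mice, and edgeR and DESeq2 called 0 of 7 genes, and no unadjusted edgeR p was under 0.05. Of all 7886 genes, edgeR called 0.0634% untreated and 0.0127% for the difference of the DSS effects. The lowest untreated adjusted p was 0.826, for S100a4. In Treg-like cells the ranges were -0.25 to 0.23 and -0.24 to 0.05, again with 0 of 7 called by either tool and no unadjusted edgeR p under 0.05. Over the 17 populations edgeR called 0 of 128 tests in each genotype comparison, and 9 of 128 in untreated and 7 of 128 in DSS-treated mice had an unadjusted p under 0.05. For the difference of the DSS effects 6 of 128 did. Over all genes of these populations 0.0479%, 0.00218% and 0.0174% of 137773 tests were called in the 3 comparisons, and 4.76%, 3.04% and 4.22% had an unadjusted p under 0.05. The lowest adjusted p by edgeR was 0.245 untreated, 0.968 after DSS and 0.790 for the difference.

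**Figure D5:**
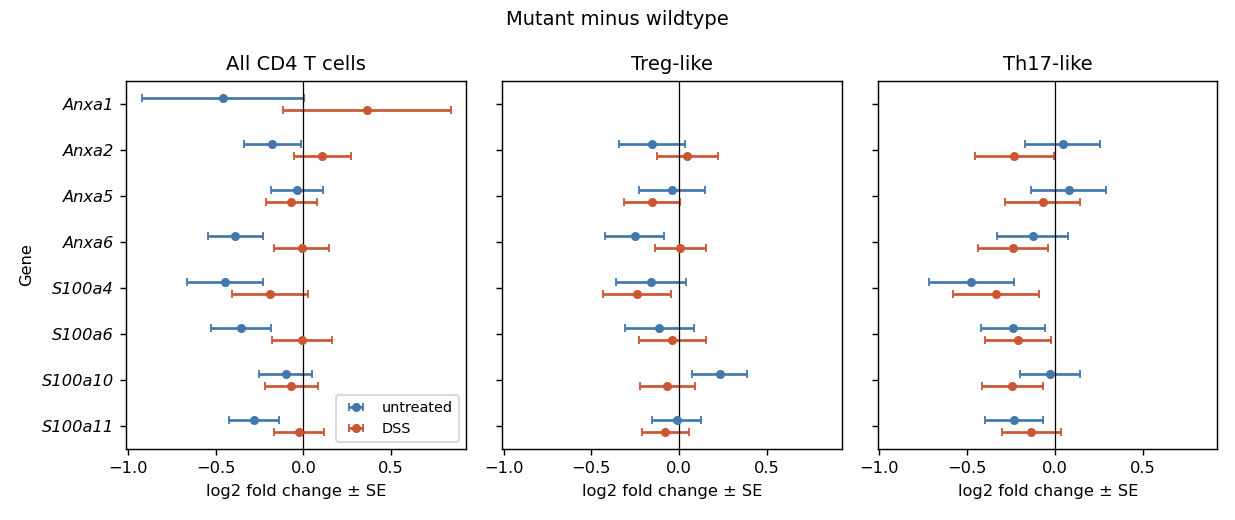
Mutant minus wildtype log2 fold change ± SE from edgeR for each gene in CD4 T cells, Treg-like and Th17-like cells, in untreated (blue) and DSS-treated (red) mice. Points lie between -0.48 and 0.36, and none of these genes was called; Anxa1 was tested in all CD4 T cells only.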

How the data were processed

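Single-cell RNA libraries of 8 colons, 2 in each of 4 groups, were used; the series design calls the libraries of a group independent biological replicates. The deposited tables hold raw UMI counts per gene and barcode, made by the authors with Cell Ranger 3.1.0 and Seurat 4.0.1 on mm10, per the submitters' processing notes. All 8 tables share one row order, and 98.49% of the gene identifiers found in the reference carried the symbol of their row. No column lacked a sample.

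Barcodes with at least 400 genes and under 20% mitochondrial UMIs were clustered with scanpy 1.11.5 (30 components, 15 neighbours, Leiden resolution 1.0, leidenalg 0.10.2), on 1757 variable genes without annexin, S100, immunoglobulin and T cell receptor genes. Clusters were named "X-like" from marker lists, with score limits set after the clusters were seen, and those below the limits were left unnamed, so names may differ from the study's. Scrublet's own threshold marked 353 barcodes (0.36%), all in 1 library, and was taken as not having worked, so no doublets were removed.

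UMIs were summed per library and population and tested with edgeR 4.0.16 (R 4.3.3, TMM scaling, filterByExpr, quasi-likelihood fit of all 8 libraries), with Benjamini-Hochberg adjustment over all genes of a population with at least 30 cells in every library. SEs are the log2 fold change divided by the square root of F. The edgeR and limma 3.58.1 scripts were tested on simulated data, and DESeq2 1.42.0 was an alternative, besides other scalings, filters, clusterings and left-out libraries. The pseudocount of log2 ratios was 1 CPM. The members and gene lists were chosen with earlier results of these data known. Named are the members, the 3 genes most like each, and list genes called in CD4 T, Treg-like or Th17-like cells; Myh9, Fpr1, Fpr2 and the annexins and receptors listed as not called were named after their values were seen. Promoters are from RefSeq (GRCm38.p6) and gene positions from GENCODE. The identity of the mutated gene and its own levels are not reported here.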

Additional observations from a re-analysis of the deposited data

How the results depend on the processing

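The counts with DSS below are on the contrast that chose the genes, so they describe the processing and support nothing. With both genotypes, Anxa2 and S100a11 were called lower after DSS under 18 of 18 alternatives in CD4 T cells and 16 of 16 in each of Treg-like and Th17-like cells, while S100a10 was called under 11 of 18 in CD4 T cells and 10 of 16 in Treg-like cells, and S100a4 under 8 of 16 in Th17-like cells. Without a filter on low counts 5 members were called in CD4 T cells in place of 3. In wildtype CD4 T cells, 2 members were called, but 1 with upper-quartile scaling, with library totals alone, without the heat-shock cluster or without the 8% highest Scrublet scores (chosen after seeing the data), and 0 with T cells on and off the authors' list. In mutant CD4 T cells, 1 was called, but 2 with DESeq2, upper-quartile scaling or no filter, 3 with the cluster make-up fixed, which also replaced edgeR by limma on log2 CPM, and 0 with only the groups compared. In Th17-like cells, the wildtype count of 0 became 3 with DESeq2, 5 without a filter and 3 with only the groups compared, and the mutant count of 4 became 2 with only the groups compared. Over all genes the wildtype count in Th17-like cells went from 5 to 23, 90 and 21 under these alternatives, and the mutant count from 242 to 196. The cause was not tested. With single libraries left out, counts in wildtype, mutant and both ranged over 0 to 2, 0 to 2 and 2 to 4 in CD4 T cells, 0 to 2, 0 to 3 and 2 to 4 in Treg-like cells, and 0 to 4, 0 to 5 and 4 to 6 in Th17-like cells. Genotype counts were 0 in all of these.

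Signs turned only for values that were not called. With DSS in CD4 T cells, S100a4 was at 0.05 with library totals alone, 0.03 and 0.11 without replicate 1 of untreated wildtype or mutant, 0.13 without DSS-treated wildtype 1 and 0.00 without DSS-treated mutant 2, in a range of -0.20 to 0.13. Anxa6 was at -0.06 with the make-up fixed, -0.06 without untreated mutant 2 and -0.02 without DSS-treated wildtype 2, in a range up to 0.16. Anxa1 between genotypes after DSS was at -0.01 with the make-up fixed and ranged from -0.08 without DSS-treated wildtype 1 to 0.88. In Treg-like cells, S100a4 ranged from -0.07 without DSS-treated wildtype 2 to 0.29, and S100a6 from -0.26 to 0.03 without untreated mutant 1. Over all genes in CD4 T cells, edgeR called 44 in wildtype, 545 in mutant and 2012 with both genotypes, but 851, 1598 and 2738 without a filter, and DESeq2 called 197, 542 and 1285. With only the groups compared the counts were 32 in wildtype and 134 in mutant, and with T cells on and off the list 13, 1062 and 2922. Upper-quartile scaling, the Scrublet cut, the fixed make-up and leaving out the heat-shock cluster gave 24, 22, 29 and 25 in wildtype, and the fixed make-up 972 in mutant. Leaving out a library gave 0 to 138 in wildtype, 0 to 616 in mutant and 241 to 2067 with both. The planned removal of Scrublet's called doublets was not run. No paired analysis was made because the library titles number animals and share no replicate number between groups. Shares of cells and levels near 1 UMI are limited by depth, with a median of 1950 to 2885.5 UMIs per CD4 T cell.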

Other observations

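ILC3-like cells, innate lymphocytes that share cytokines with Th17 cells, were followed beside the T cells. With both genotypes 3 of 8 genes were called lower there after DSS, where 1.06% of 6211 genes were called lower. Anxa2 was 127 to 241 CPM in untreated and 52.9 to 139 CPM in DSS libraries, at -1.06 ± 0.23, and the ranges overlapped. S100a10 was 785 to 952 CPM in untreated and 521 to 723 CPM in DSS libraries, with no overlap, at -0.57 ± 0.14. S100a4 was 399 to 714 CPM in untreated and 445 to 1079 CPM in DSS ILC3-like cells, at 0.02 ± 0.20, and was not called. In myeloid cells led by Chil3 and Clec4e, S100a11 was at 0.00 ± 0.11, beside a called change of -0.69 ± 0.13 for S100a10. Endothelial-like Anxa1 was 43.7 to 89.2 CPM in untreated and 90.1 to 138 CPM in DSS libraries, at 0.81 ± 0.22, which was not called.

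Of 10 genes that glucocorticoids induce in many cells, 3 were called higher and 1 lower after DSS in CD4 T cells with both genotypes, where 9.14% of all genes were called higher and 9.10% lower. This list too was chosen with earlier results of these data known, so nothing is read from its counts. Il7r, the interleukin 7 receptor chain, was 173 to 251 CPM in untreated and 329 to 415 CPM in DSS libraries, at 0.67 ± 0.09. Cxcr4, a chemokine receptor, was at 0.88 ± 0.15 and Zfp36, which destabilises cytokine transcripts, at 0.54 ± 0.09. Errfi1, a feedback inhibitor of EGF receptors, was at -0.58 ± 0.11. Among naive T cell genes, Ccr7 and Satb1 were called higher at 0.50 ± 0.14 and 0.32 ± 0.09, and Klf2 and S1pr1 lower at -0.56 ± 0.09 and -0.42 ± 0.10.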
